A study of Mus musculus with 9 samples.

Results

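The T cell receptor complex and its coreceptors are described here through 10 genes: Cd3e, Cd3d, Cd3g, Cd4, Cd8a, Cd8b1, Cd2, Cd5, Cd28 and Lck. They were chosen by name, as the core of the T cell receptor complex with its coreceptors, and all 10 were found among the 56719 genes listed in the count files. Livers of C57BL/6J mice were sequenced in 9 libraries, 3 per group. WT mice were gavaged with PBS for 4 weeks and injected with PBS. Con A mice had the same PBS gavage and then, on the day of collection, concanavalin A (10 mg/kg, tail vein), a lectin from jack beans that stimulates T cells and is used to injure the mouse liver. FMT-Con A mice had that injection after 4 weeks of gavage with a faecal suspension in PBS, from mice with the Con A model of autoimmune hepatitis. No transgene or deletion is named in the labels for any group. How many donors gave faeces and how many hours passed after the injection are not given in the sources used here.

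The T cell receptor has no signalling domain of its own. It is held at the surface with the CD3 chains epsilon, delta and gamma and the zeta chain, and the tyrosine kinase LCK phosphorylates their cytoplasmic tails when the receptor meets a peptide on an MHC molecule. CD4 binds MHC class II and CD8, a pair of alpha and beta chains or of alpha chains alone, binds class I, and both bring LCK to the receptor. CD28 gives the second, costimulatory signal on meeting CD80 or CD86, CD2 adheres to CD48, and CD5 dampens receptor signalling. Con A liver injury is known to depend on T cells, and the liver also holds natural killer T cells, many of which carry CD4 or neither coreceptor.

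The libraries held 20513051 to 29466806 counts, of which the 10 genes together took only 180 to 792, and a single gene had 1 to 379 counts in a library. Counting error alone is therefore wide for the lowest counts. Transcripts of skeletal muscle stood out in some libraries: 16 muscle genes summed to 20.1 to 24.1 CPM (counts scaled to the TMM library size) in WT. The sums were 6.60, 12.8 and 1775 for Con A 1, 2 and 3, and 16033, 1714 and 15636 for FMT-Con A 1, 2 and 3. Mitochondrial transcripts took 19.6 to 22.4% of counts in WT, 5.03 to 9.96% in Con A, with 7.44 to 11.7% in FMT-Con A. The labels give the sex both as male and as female, and the Y-linked gene Ddx3y had 2676 to 6192 counts in every library against 21 to 139 of Xist. The 6 hepatocyte genes, Alb among them, summed to 26520 to 63350 CPM and marked every library as liver.

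After Con A alone, most of the 10 genes were higher and Cd4 was lower than in WT. In edgeR's quasi-likelihood test (adjusted p at most 0.05 over 17704 genes), 7 of the 10 rose in Con A against WT, namely Cd28, Cd8a, Cd3e, Cd5, Cd3d, Cd2 and Lck, 1 fell (Cd4) and 2 did not pass (Cd3g and Cd8b1). Of all genes tested, 63.4% passed in that comparison, 32.5% higher and 30.9% lower. Without overlap between their libraries, 7 of the 10 were higher and 1 lower, where 35.0% and 34.8% of all genes were (69.8% in either direction). The number that rose was 4 without WT 1 and 4 without WT 3. The median log2 fold change was 1.93 over the 10 genes and 0.01 over all genes. Cd28, Cd8a, Cd5, Cd3d and Cd8b1 had only 1 to 10 counts per WT library and passed the filter on low counts through the injected groups. A fall of these genes could hardly have been called in either comparison with WT. The shares and medians of the 10 genes are therefore not like for like with those of all genes. Whole liver was sequenced, so fewer or more T cells, less or more RNA per T cell and expression by other cells cannot be told apart.

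With faecal transfer before the injection, the group means of Cd3e, Cd3d, Cd2, Cd5 and Cd28 lay between those of WT and Con A. The means of Cd8a and Cd8b1 lay close to Con A, those of Lck and Cd3g close to or under WT, and Cd4 had its lowest mean of all groups. Against Con A, 1 of the 10 fell in FMT-Con A (Cd3e, a call lost with the replicate block) and 0 rose, where 16.8% of all genes passed, 10.6% lower and 6.26% higher. At an unadjusted edgeR p under 0.05, 3 were lower (Cd3e, Lck and Cd28) and 0 higher, and DESeq2 called 2 lower and 0 higher. Against WT, 3 of the 10 rose in FMT-Con A (Cd28, Cd8a and Cd5), 1 fell (Cd4) and 6 did not pass, where 59.0% of all genes passed, 31.2% higher and 27.9% lower. The median over the 10 genes was -0.71 against Con A and 1.09 against WT, beside -0.01 and 0.03 over all genes. The 3 comparisons share their groups of libraries, so their values are not independent of each other.

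**Figure D1:**
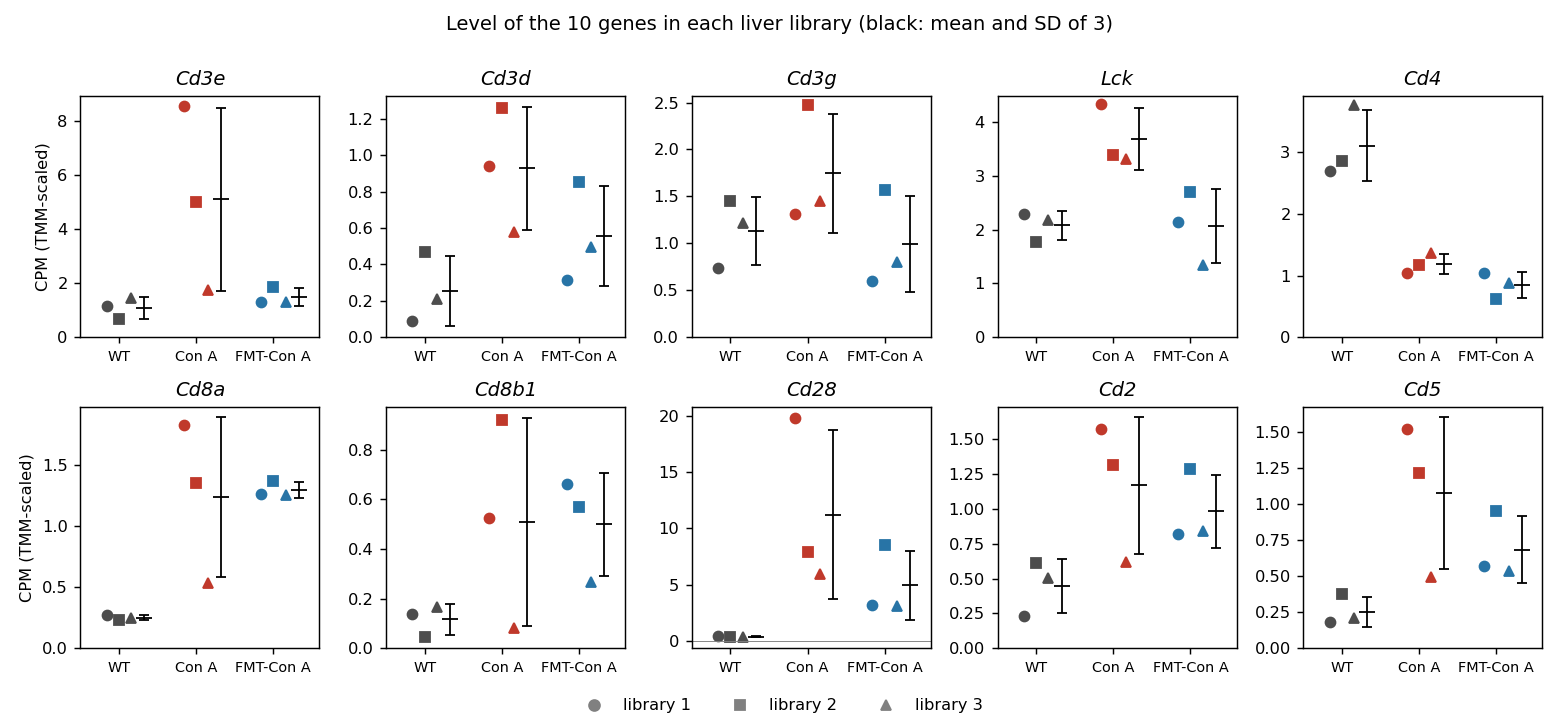
CPM of each of the 10 genes in each of the 9 libraries, by group, with the black bars at the mean and SD of 3 libraries. Cd4 is high in all 3 WT libraries, Cd28 is highest in Con A 1 at 19.8, and Con A 3 is the lowest Con A library for 8 of the 10 genes.

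The CD3 chains are the invariant part of the receptor. Cd3g, Cd3d and Cd3e are neighbours on chromosome 9 (GRCm38), Cd3g at chr9:44969572-44980431 on the minus strand, Cd3d at chr9:44981786-44987339 on the plus strand and Cd3e at chr9:44998740-45009627 on the minus strand, within 40056 bases. Cd3g and Cd3d start 1354 bases apart and are read in opposite directions. The RefSeq promoter windows of these genes and of Cd8a, from 250 bases before to 50 after the start on GRCm38.p6, are shown because the 3 CD3 genes share a locus, where Cd3e and Cd3d rose after Con A and Cd3g did not pass, and because Cd8a rose in both injected groups. Capitals mark a match, on either strand, to 7 short motifs: AGGAAG for ETS factors, TGTGGT for RUNX factors, CANCTG for the E-box, CTTTGA for TCF/LEF factors, AGATAA for factors of the GATA family, TGGAAA for NFAT factors and TTCNNNGAA for STAT factors.
Cd3e (chr9:45009562-45009861, minus strand): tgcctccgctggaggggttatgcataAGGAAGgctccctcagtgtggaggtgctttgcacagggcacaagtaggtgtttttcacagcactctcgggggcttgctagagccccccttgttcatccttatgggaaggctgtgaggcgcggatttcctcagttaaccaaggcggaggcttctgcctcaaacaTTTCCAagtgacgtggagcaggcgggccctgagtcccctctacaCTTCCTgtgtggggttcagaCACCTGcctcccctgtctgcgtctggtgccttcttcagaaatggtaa
Cd3d (chr9:44981536-44981835, plus strand): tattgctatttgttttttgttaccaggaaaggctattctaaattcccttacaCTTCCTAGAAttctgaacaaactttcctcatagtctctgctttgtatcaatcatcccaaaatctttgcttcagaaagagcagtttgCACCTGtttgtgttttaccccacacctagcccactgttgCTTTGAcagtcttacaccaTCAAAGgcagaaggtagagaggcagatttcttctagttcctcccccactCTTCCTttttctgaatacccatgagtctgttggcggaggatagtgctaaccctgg
Cd3g (chr9:44980382-44980681, minus strand): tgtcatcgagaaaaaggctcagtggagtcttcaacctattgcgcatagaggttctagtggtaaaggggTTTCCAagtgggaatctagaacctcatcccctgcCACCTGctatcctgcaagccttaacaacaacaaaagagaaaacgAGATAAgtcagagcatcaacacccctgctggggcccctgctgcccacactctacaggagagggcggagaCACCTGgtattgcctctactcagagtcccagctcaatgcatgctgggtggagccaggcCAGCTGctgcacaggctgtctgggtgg
Cd8a (chr6:71373177-71373476, plus strand): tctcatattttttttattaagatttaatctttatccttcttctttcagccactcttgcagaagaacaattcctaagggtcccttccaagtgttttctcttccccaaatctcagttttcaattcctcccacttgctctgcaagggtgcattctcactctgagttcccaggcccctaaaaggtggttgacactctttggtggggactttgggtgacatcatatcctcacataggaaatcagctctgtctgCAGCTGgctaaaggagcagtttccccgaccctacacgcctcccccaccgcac
The Cd3d window has ETS matches 198 and 5 bases before the start, a STAT match overlapping the first of these, an E-box at 112 and TCF/LEF matches at 73 and 54. The Cd3e window has ETS matches at 224 and 17 bases before the start, an NFAT match at 61 and an E-box 4 bases into the transcript. The Cd3g window has an NFAT match at 182, E-boxes at 148 and 35, a GATA match at 104 and an E-box 24 bases into the transcript, and no ETS match in these letters. The Cd8a window holds an E-box 2 bases before the start. RefSeq windows were matched for 6 of the 10 genes (those shown, Cd5 and Lck, in 7 windows since Lck has 2). An E-box was in all 7 of them, against 51.4% of 32851 windows of the table. ETS letters were in 4 of the 6 genes (35.4% of all windows), NFAT in 3 (21.4%), and RUNX (16.8%), TCF/LEF (16%), GATA (11.2%) and STAT (8.30%) in 1 each. A match is a description of these letters and no evidence of a site.

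Cd3e (ENSMUSG00000032093), whose product pairs with the delta and gamma chains, was measured at 1.14, 0.655 and 1.46 CPM in WT, 8.54, 5.0 and 1.74 in Con A, with 1.29, 1.85 and 1.3 in FMT-Con A. Con A 1 and 2 stood far above every other library, while Con A 3 was close to WT and below FMT-Con A 2. Cd3e rose 2.21 on the log2 scale in Con A against WT (SE 0.53, edgeR adjusted p = 0.0046), a 4.62-fold difference. It fell by 1.78 in FMT-Con A against Con A (SE 0.51, edgeR adjusted p = 0.0424). This last call was lost with the replicate block (edgeR adjusted p = 0.0678), with library totals only (0.0527), with the 2 groups alone (0.0852) and without single libraries. Without Con A 1 the fall was 1.16 (edgeR adjusted p = 0.171). Leaving out FMT-Con A 1 or FMT-Con A 3 gave edgeR adjusted p of 0.142 and 0.132. It was also lost without Con A 2 (0.0614), WT 1 (0.0704), WT 2 (0.0546) or WT 3 (0.0581). Against WT, FMT-Con A differed by 0.43, with a 95% interval of -0.77 to 1.63. Of the exonic bases of Cd3e, 135 (3.31%) are shared with Gm48719, an antisense gene that had 1 to 7 counts per library.

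Cd3d (ENSMUSG00000032094), the delta chain, was low throughout, with 2 to 10 counts per library in WT, 14 to 26 after Con A alone and 10 to 18 with faecal transfer. Its levels were 0.0916, 0.468 and 0.209 CPM in WT, 0.943, 1.26 and 0.580 in Con A, with 0.316, 0.855 and 0.496 in FMT-Con A. Each Con A library was above each WT library. Cd3d rose 1.84 in Con A against WT (SE 0.59, edgeR adjusted p = 0.0203), a call that was lost without WT 1 (0.0777), WT 3 (0.0707) or Con A 2 (0.0691). FMT-Con A was 0.76 lower than Con A (edgeR adjusted p = 0.34) and 1.07 higher than WT (edgeR adjusted p = 0.153), and neither passed.

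Cd3g (ENSMUSG00000002033), the gamma chain, overlapped in all 3 groups, at 0.733, 1.45 and 1.21 CPM in WT, 1.31, 2.47 and 1.45 in Con A, with 0.600, 1.57 and 0.801 in FMT-Con A. Its Con A against WT difference of 0.62 did not pass (95% interval -0.34 to 1.59). FMT-Con A differed from Con A by -0.84 (interval -1.81 to 0.13) and from WT by -0.22 (interval -1.21 to 0.77). The difference between the 3 chains was not tested.

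Lck (ENSMUSG00000000409, chr4:129548344-129573641, minus strand), the kinase that starts receptor signalling, had 2.29, 1.78 and 2.17 CPM in WT, 4.35, 3.40 and 3.32 in Con A, with 2.15, 2.71 and 1.34 in FMT-Con A. All 3 Con A libraries lay above all 6 others. The rise in Con A against WT was 0.82 on the log2 scale (SE 0.29, edgeR adjusted p = 0.0284), and the call was lost when WT 1, WT 2, WT 3 or Con A 1 was left out, with adjusted p of 0.0591 to 0.101, and with scaling to library totals only (0.0702). Lck was 0.84 lower in FMT-Con A than in Con A and did not pass (edgeR adjusted p = 0.0685, 95% interval -1.47 to -0.21), though the groups did not overlap. Without FMT-Con A 2 it passed, with an edgeR adjusted p of 0.0293. Lck and Cd4 were the 2 of 10 genes lower without overlap in that comparison, where 18.8% of all genes were (32.7% in either direction). FMT-Con A and WT differed by -0.02, with an interval of -0.66 to 0.62.

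Cd4 (ENSMUSG00000023274, chr6:124864692-124888221, minus strand), the class II coreceptor, was the exception in direction. It was measured at 2.70, 2.86 and 3.76 CPM in WT, 1.05, 1.16 and 1.37 in Con A, with 1.04, 0.617 and 0.877 in FMT-Con A. The 3 WT libraries were above all 6 injected libraries, and the 3 Con A libraries above the 3 FMT-Con A libraries. Cd4 fell by 1.37 in Con A against WT (SE 0.28, edgeR adjusted p = 0.00177), 2.59-fold, and by 1.86 in FMT-Con A against WT (SE 0.28, edgeR adjusted p = 0.000392), 3.62-fold. Against Con A, FMT-Con A was 0.48 lower and did not pass (95% interval -1.14 to 0.17). Cd4 is also expressed by some dendritic cells. Of 8 dendritic cell markers, 5 were tested and 3 fell in Con A against WT (Clec9a, Zbtb46 and Xcr1), beside 30.9% of all genes, while Itgax rose and Clec10a did not pass (0.30). In FMT-Con A against WT the same 3 fell, and Itgax (1.01) and Clec10a (2.68) rose, beside 27.9% and 31.2% of all genes. Clec10a was at 4.55, 0.950 and 4.46 CPM in the 3 FMT-Con A libraries. Which of these markers share cells with Cd4 was not measured. The 8 summed to 16.1 to 21.4 CPM in WT, 8.33 to 9.99 after Con A alone and 7.31 to 12.4 with faecal transfer. No marker was at 0 in every library, and their part in the fall of Cd4 was not tested.

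Cd8a (ENSMUSG00000053977, chr6:71373427-71379173, plus strand) encodes the alpha chain of the class I coreceptor. It was at 0.275, 0.234 and 0.251 CPM in WT (5 to 6 counts per library), 1.83, 1.36 and 0.539 in Con A, with 1.26, 1.38 and 1.26 in FMT-Con A. Every injected library was above every WT library, and the 3 FMT-Con A libraries were close together. Cd8a rose 2.26 in Con A (SE 0.47, edgeR adjusted p = 0.00198) and 2.33 in FMT-Con A (SE 0.46, edgeR adjusted p = 0.00183) against WT, 4.78-fold and 5.04-fold. The 2 injected groups differed by 0.08, with an interval of -0.80 to 0.96, which does not show that they were alike.

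Cd8b1 (ENSMUSG00000053044, chr6:71322788-71337494, plus strand), the beta chain gene 35932 bases from Cd8a, had 1 to 4 counts in WT, 2 to 19 after Con A alone and 7 to 21 with faecal transfer. Its levels were 0.137, 0.0468 and 0.167 CPM in WT, 0.524, 0.922 and 0.0829 in Con A, with 0.663, 0.570 and 0.267 in FMT-Con A. Con A 3 lay within the WT range, and all FMT-Con A libraries lay above it. Its differences against WT were 2.03 in Con A (edgeR adjusted p = 0.0556) and 2.03 in FMT-Con A (edgeR adjusted p = 0.0542), and neither passed. Without Con A 3, where it had 2 counts, the first was 2.57 (edgeR adjusted p = 0.00802). The second passed without Con A 2 (0.0395), Con A 3 (0.0169) or FMT-Con A 3 (0.0459). The 2 injected groups differed by 0.01, with an interval of -1.45 to 1.46.

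Cd28 (ENSMUSG00000026012, chr1:60716800-60773359, plus strand), the costimulatory receptor, had the largest difference of the 10 genes. It was at 0.458, 0.375 and 0.293 CPM in WT, 19.8, 7.86 and 5.93 in Con A, with 3.22, 8.50 and 3.13 in FMT-Con A. All 6 injected libraries were above all WT libraries, and FMT-Con A 2 lay within the Con A range. The rise was 4.88 in Con A against WT (SE 0.64, edgeR adjusted p = 0.000107), 29.5-fold, and 3.70 in FMT-Con A against WT (SE 0.63, edgeR adjusted p = 0.000757), 13-fold. Without Con A 1 the first was 4.18, and without FMT-Con A 2 the second was 3.08. FMT-Con A was 1.19 lower than Con A (95% interval -2.30 to -0.07) and did not pass after adjustment (edgeR adjusted p = 0.125). Without FMT-Con A 2 it was 1.80 lower and passed (edgeR adjusted p = 0.0247).

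Cd2 (ENSMUSG00000027863, chr3:101275899-101287939, minus strand), an adhesion receptor, was at 0.229, 0.609 and 0.502 CPM in WT, 1.57, 1.31 and 0.622 in Con A, with 0.821, 1.28 and 0.839 in FMT-Con A. It rose 1.36 in Con A against WT (SE 0.47, edgeR adjusted p = 0.0268), a call lost without WT 1, WT 3, Con A 1 or Con A 2 (adjusted p 0.0563 to 0.101). In FMT-Con A it was 1.11 above WT (edgeR adjusted p = 0.0624; 0.0395 without Con A 3) and 0.25 under Con A (interval -1.21 to 0.71). Natural killer cells also express Cd2 and Lck: 4 of 6 tested natural killer markers rose in Con A against WT (32.5% of all genes) and 4 of 6 fell in FMT-Con A against Con A (10.6%). The 8 listed markers summed to 5.86 to 7.57 CPM in WT, 21.6 to 29.0 in Con A, with 5.80 to 7.17 in FMT-Con A. Gzma alone had a mean of 14.9 CPM in Con A, and Klra8 was at 0 in all libraries. Klrk1 (-0.12) and Klre1 (0.48) did not pass in Con A against WT. The part of these markers in these results was not tested.

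Cd5 (ENSMUSG00000024669, chr19:10717116-10739002, minus strand), an inhibitory receptor of T cells, was at 0.183, 0.375 and 0.209 CPM in WT, 1.52, 1.21 and 0.497 in Con A, with 0.568, 0.950 and 0.534 in FMT-Con A. Each injected library lay above each WT library. Cd5 rose 2.04 in Con A (SE 0.52, edgeR adjusted p = 0.00633) and 1.39 in FMT-Con A (SE 0.53, edgeR adjusted p = 0.0442) against WT, and FMT-Con A was 0.65 under Con A (interval -1.68 to 0.37). The FMT-Con A call was lost with DESeq2 (0.0581) and without WT 1 (0.13), WT 3 (0.118), Con A 2 (0.053), or FMT-Con A 1, 2 or 3 (0.0613, 0.122 and 0.0541). In FMT-Con A against WT, 5 of the 10 genes were higher without overlap (Cd28, Cd8a, Cd5, Cd8b1 and Cd2) and 1 lower (Cd4), where 35.4% and 33.7% of all genes were (69.1% in either direction).

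**Figure D2:**
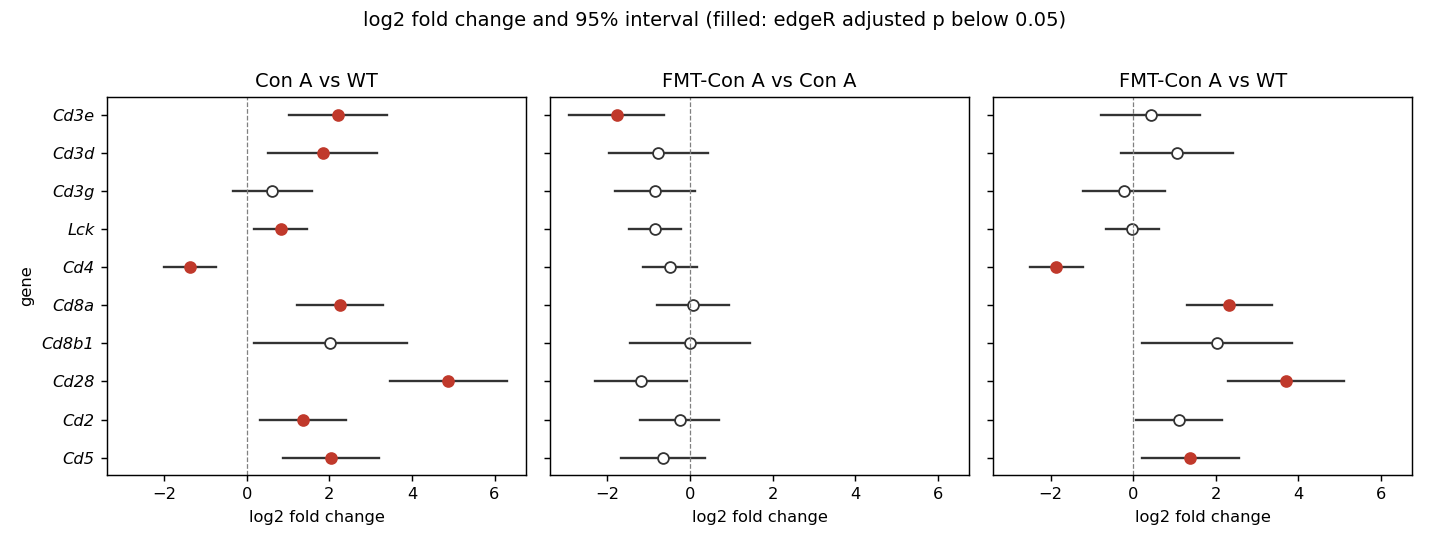
Log2 fold changes of the 10 genes with 95% intervals in the 3 comparisons, with filled points for genes past the threshold. Cd28 is highest in both comparisons with WT, at 4.88 and 3.70, and Cd4 is the only gene below 0 past the threshold in both.

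Library differences within groups were large for many of the 10 genes. By their counts, though, FMT-Con A 1 and 3 were the most alike of all pairs of libraries. The median chi-square between them, divided by its expected value, was 2.71. With FMT-Con A 2 it was 13.03 for FMT-Con A 1 and 13.09 for FMT-Con A 3, and between WT libraries it was 3.58 to 5.98. Whether FMT-Con A 1 and 3 are independent of each other was not tested. Con A 1 was the highest Con A library for 6 of the 10 genes and Con A 3 the lowest for 8, and FMT-Con A 2 was the highest of its group for 8. Con A 3 was the Con A library with the most muscle transcripts and FMT-Con A 2 the FMT-Con A library with the fewest. Leaving the listed muscle genes out of the fit changed no call and no direction of the 10 genes. In FMT-Con A against Con A that fit called 2885 of all genes, against 2981. It bears only on the scaling and shared spread, and any other part of muscle tissue in the results was not tested. Leaving out Con A 3, FMT-Con A 1 and FMT-Con A 3, chosen after seeing the data, gave 8 higher and 1 lower in Con A against WT. It left FMT-Con A with 1 library, assumed to vary like the other groups, so its 0 calls against Con A (492 over all genes, against 2981) say nothing of the 10 genes.

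A ratio of genes within a library does not depend on its size. In whole liver its 2 sides can come from different cells, so it does not give the make-up of the receptor complex. Cd4 counts were 137, 111 and 130% of the summed Cd3d, Cd3e and Cd3g counts in WT, 9.71, 13.3 and 36.3% in Con A, with 47.1, 14.4 and 33.8% in FMT-Con A. The WT libraries were apart from all others, with log2 differences of -2.88 in Con A and -2.11 in FMT-Con A against WT. Cd8a counts were 14.0, 9.09 and 8.70% of the same sum in WT, 17.0, 15.6 and 14.3% in Con A, with 57.1, 32.2 and 48.5% in FMT-Con A, and each FMT-Con A library was above each other library. The difference of Cd8a over Cd3 was 1.51 between FMT-Con A and Con A and 2.02 between FMT-Con A and WT. Cd4 counts were 983 to 1500% of Cd8a counts in the WT libraries, 57.1 to 254% after Con A alone and 44.8 to 82.5% after faecal transfer. Each of these had an exact two-sided permutation p of 0.1, the smallest that 3 against 3 libraries can give, and 0.2 after Benjamini-Hochberg adjustment over the 30 ratio tests, so no ratio could pass.

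Cd28 counts were 23.3, 14.5 and 10.1% of the Cd3 sum in WT, 184, 90.0 and 157% in Con A, with 146, 199 and 121% in FMT-Con A, so both injected groups were above WT and overlapped each other. Cd2 over Cd3 was 1.10 and Cd5 over Cd3 0.73 higher on the log2 scale in FMT-Con A than in Con A, without overlap. In that comparison Cd8a, Cd2 and Cd5 themselves differed by 0.08, -0.25 and -0.65, none passing, while Cd3e fell by 1.78. Cd3e gave 308 counts to the Cd3 sum in Con A, beside 58 of Cd3d and 111 of Cd3g. The ratios of Cd8a, Cd2 and Cd5 share that sum and are not separate gains. The Cd3 sum was 4.48, 5.85 and 5.04% of 8 pan-leukocyte genes in WT, 8.49, 6.69 and 3.35% in Con A, with 2.69, 4.47 and 3.03% in FMT-Con A. Its difference between Con A and WT was 0.17, and the groups overlapped, while FMT-Con A was 0.62 below WT without overlap (exact permutation p = 0.1). Of those 8 genes, 6 rose in Con A against WT, beside 32.5% of all genes. The 8 summed to 43.9 to 57.2 CPM in WT, 112 to 131 in Con A, with 82.0 to 95.6 in FMT-Con A. Their part in the changes of the 10 genes was not tested. Lck counts were 116, 69.1 and 75.4% of the Cd3 sum in WT, 40.3, 38.9 and 87.9% in Con A, with 97.1, 63.3 and 51.5% in FMT-Con A, and all groups overlapped. Cd8b1 counts ran from 15.4 to 67.9% of Cd8a counts over the 9 libraries and overlapped in all comparisons.

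**Figure D3:**
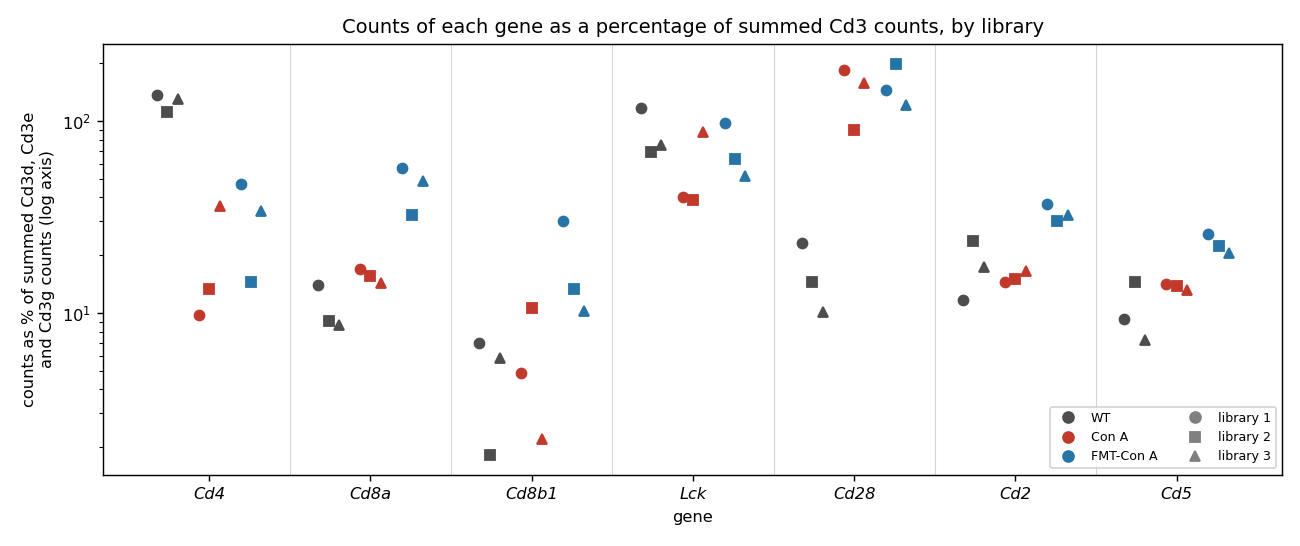
Counts of each gene as a percentage of the summed Cd3d, Cd3e and Cd3g counts (log axis), 1 point per library, coloured by group and shaped by library number. The Cd4 points of WT lie at 111 to 137%, above all injected libraries, and the Cd8a points of FMT-Con A at 32.2 to 57.1%, above all others.

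Per kilobase of exon, the order of mean levels in WT began with Cd4 (0.770 CPM per kb) and Lck (0.710), whose libraries overlapped, and Lck did not overlap the next gene, Cd3g (0.346). Cd3e, Cd2, Cd3d, Cd8b1, Cd8a, Cd28 and Cd5 followed, each overlapping its neighbour. In Con A the order was Cd28 (1.83), Lck (1.26), Cd3e (1.25), Cd2, Cd3g, Cd3d, Cd8b1, Cd8a, Cd4 and Cd5, with overlap between all neighbours. In FMT-Con A it was Cd28 (0.808), Lck (0.704), Cd2 (0.563), then Cd3e, Cd8a, Cd8b1, Cd3d, Cd3g, Cd4 and Cd5, and only Cd2 and Cd3e did not overlap. Cd4 thus stood at place 1 in WT and place 9 in both injected groups.

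Of 7 receptor constant chains, 4 passed the count filter. Trac, the alpha constant chain, rose 2.70 after Con A alone and 2.24 after faecal transfer and Con A, both against WT, with edgeR adjusted p of 0.00208 and 0.00685, while Tcrg-C2, a gamma constant chain, fell by 2.75 and 2.52. Trac passed the filter through the injected groups, with 0.234 to 0.376 CPM in WT. Tcrg-C2 passed it through WT, with 0.0763 to 0.253 CPM in the injected groups. A call in the other direction was thus unlikely for either. Trbc1 and Trbc2, the near-identical beta constant chains, did not pass, at 0.62 and 0.38 in Con A. Reads of such copies cannot be told apart with certainty.

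Among 23 tested genes of proximal receptor signalling, 12 rose and 3 fell in Con A against WT (median 1.06), where 32.5% of all genes rose and 30.9% fell. Cd247, the zeta chain, rose 2.21, and the adaptors Lcp2 and Trat1 rose 1.57 and 2.87. Trat1 was low, at 0.167 to 0.187 CPM in WT and 0.681, 2.62 and 0.746 in Con A, where Con A 2 stood far above the others. Plcg1, Dgka and Csk fell by 1.61, 1.31 and 1.00. Genes of this list that rose, as well as those that fell, can also be expressed outside T cells. Zap70, the kinase that binds the phosphorylated chains, was at 0.05 and the adaptor Lat at 0.48, neither passing. Against Con A, 5 fell in FMT-Con A (Txk, Lcp2, Vav1, Trat1 and Ptpn22) and 0 rose, where 10.6% of all genes fell. Against WT 8 rose and 8 fell, near the 31.2% and 27.9% of all genes. Prkcq, a kinase that skeletal muscle also expresses, rose 2.85 in FMT-Con A against WT, with 12.8, 2.71 and 12.8 CPM in the 3 FMT-Con A libraries. Its 2 high libraries were those with the most muscle transcripts, whose part in this rise was not tested.

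Most ligands of these receptors rose after Con A alone and fell with faecal transfer against Con A alone. Of 9 genes, 7 rose in Con A against WT (median 0.93), beside 32.5% of all genes, with H2-D1 at 1.51, Cd48, the CD2 ligand, at 1.47 and Cd86, a CD28 ligand, at 1.54, and Cd80 and B2m did not pass. In FMT-Con A 8 of 9 fell against Con A (median -0.82), among them Cd86 at -1.13, H2-Ab1 at -1.05 and Cd48 at -1.01, with 10.6% of all genes falling. Of 13 tested activation targets of the receptor, 10 rose in Con A against WT (median 3.10), beside the same 32.5%, with Tnfrsf9 at 8.04, Egr2 at 6.49 and Ifng at 6.49. In WT these were near 0, Tnfrsf9 at 0 to 0.0418 CPM, Egr2 at 0.0468 to 0.167 and Ifng at 0.0418 to 0.320. The size of their rises against WT is therefore poorly fixed. In FMT-Con A against Con A, 5 of 13 fell, beside 10.6% of all genes, with Ifng at -2.09, Egr2 at -1.50, Tnfrsf9 at -1.46 and Nr4a1 at -0.81. Against WT, 9 of 13 rose in FMT-Con A, beside 31.2% of all genes. Among 17 tested lineage and naive T cell genes, 9 rose in Con A against WT and 2 fell, beside 32.5% and 30.9% of all genes. Klf2 at 2.94 and Satb1 at 2.53 were among those that rose. Some of these genes are also expressed by hepatocytes, macrophages or neutrophils, and these lists were chosen with earlier results of the data known.

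**Figure D4:**
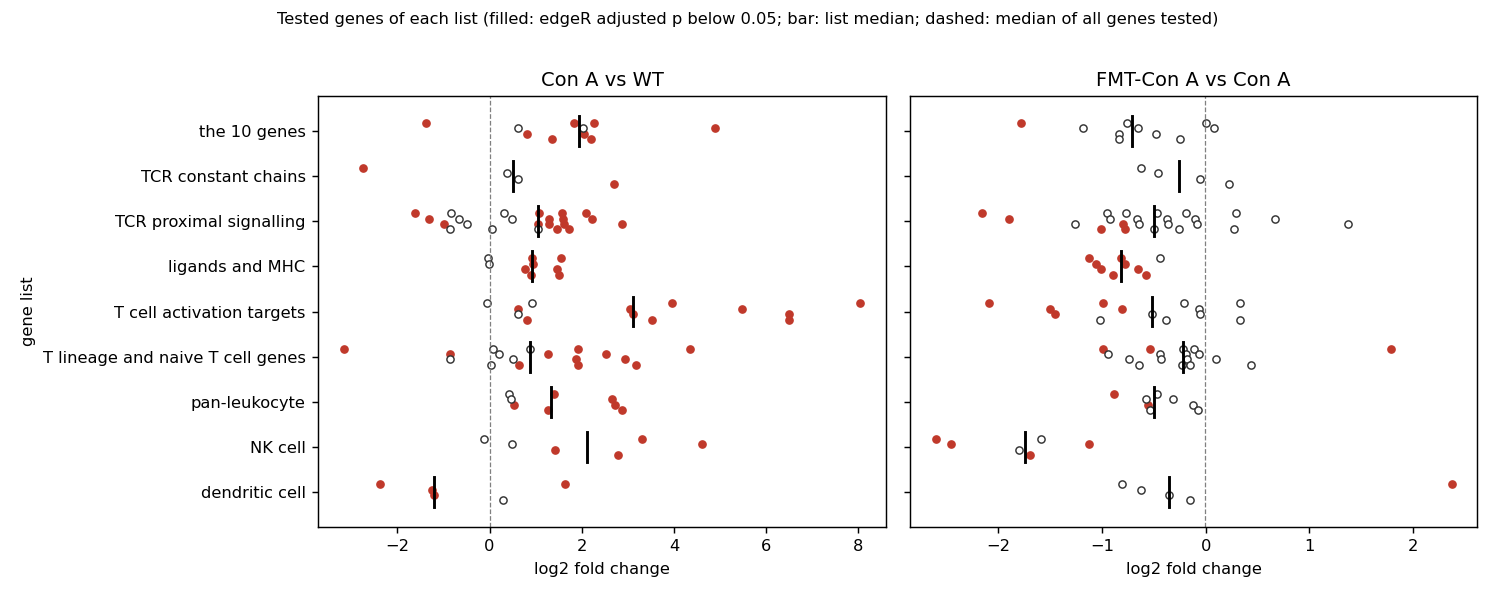
Log2 fold changes of the tested genes of each list in Con A against WT (left) and FMT-Con A against Con A (right), 1 point per gene, filled where past the threshold, with a bar at the list median and a dashed line at the median of all genes. Of the 9 ligand genes, 7 are filled above 0 on the left and 8 are filled below 0 on the right, with medians of 0.93 and -0.82.

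All 6 neutrophil markers rose in both comparisons with WT, beside 32.5% of all genes in Con A and 31.2% in FMT-Con A. Of 6 B cell markers, 1 fell in Con A against WT, beside 30.9% of all genes. Kupffer cell markers summed to 137 to 211 CPM in WT, 101 to 132 in Con A, with 38.2 to 89.0 in FMT-Con A. Of these 6 markers, 4 fell in FMT-Con A against WT, beside 27.9% of all genes. In Con A against WT 2 of 6 rose (Marco and Adgre1) and 2 fell, near the 32.5% and 30.9% of all genes. Marco rose in both comparisons with WT, at 3.30 and 2.64.

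The genes most like the members across the 9 libraries were found by the root mean square difference of centred log2 CPM, over 12727 candidates of at least 1 CPM (12728 for Cd8a). For Cd3e they were Ccnd1 (0.41), Mvb12a (0.44) and Il23a (0.45). For Cd4 they were Acnat1 (0.16), Stard9 (0.18) and Rtkn (0.19), and for Cd8a Fyb2 (0.29), Agpat4 (0.30) and Ppbp (0.31). For Cd28 they were Coq8b, Cldn14 and H3f3b, at 0.37, 0.37 and 0.39. Receptor segment genes, pseudogenes and predicted gene models were left out of the candidates, so no receptor constant chain could appear among these. Among the 10 genes themselves, Cd2 and Cd5 were closest, at 0.28, followed by Cd3d and Cd5 at 0.35 and Cd3d and Cd2 at 0.36.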

How the data were processed

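The deposited values are raw counts per gene, 1 file per library, made by the authors with CASAVA, HISAT2 and featureCounts on GRCm38 (mm10), per the submitters' processing notes. Strand setting, treatment of multimapping reads and versions are not given in the sources used here. Symbols, positions and exon lengths came from GENCODE vM21, and promoter windows from RefSeq (GRCm38.p6). The labels number the mice but state nothing more of separate animals, so p-values reflect only how these libraries spread, which may be technical, and reads carry no molecular identifiers. A single fit of all 9 libraries was made with edgeR 4.0.16 (R 4.3.3; quasi-likelihood F test, two-sided, TMM, filterByExpr with minimum count 10 and total 15, 17704 genes kept, Benjamini-Hochberg threshold 0.05). SE is the size of the log2 fold change divided by the root of the F statistic, and intervals are 95% and unadjusted. CPM use the TMM-scaled library size. Ratios had 0.5 added to each count. The fit was also run on simulated counts in which few genes changed, unlike these data, so that run does not check the calls made here. Alternatives used DESeq2 1.42.0, other scalings and filters and libraries left out. All 10 genes are named in every comparison, with up to 4 genes of lowest p per list and those opposite to most of it; a few others were chosen after their values were seen. The members and lists were chosen with earlier results of these data known. Some genes of the lists are counted but not reported by name here.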

Additional observations from a re-analysis of the deposited data

How the results depend on the processing

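Over 558 alternative values of the 10 genes' log2 fold changes, 495 kept direction and side of the threshold, 32 lost a call, 13 gained one and 18 changed sign, none of these past the threshold. Genes rising in Con A against WT numbered 4 to 8 with 1 library left out, 4 without WT 1 or WT 3. Genes falling in FMT-Con A against Con A numbered 0 to 3 (3 without FMT-Con A 2), 2 with DESeq2 or no count filter, and 0 with library totals only, with the 2 groups alone, with the replicate block, with FMT-Con A 2 as the only library of its group (99 genes called of all, against 2981) and without the 3 libraries with most muscle transcripts. Genes rising in FMT-Con A against WT numbered 2 to 5, 5 without Con A 3. The cause was not tested. In FMT-Con A against Con A, Cd8b1 was -0.0087 with DESeq2, -0.53 to 0.80 with 1 library left out and -0.31 without the 3 muscle-rich libraries, Cd8a -0.29 to 0.48 and -0.18, and Cd2 -0.56 to 0.040, and 0.15 with FMT-Con A 2 alone. Against WT, Cd3g was -0.69 to 0.070, 0.47 with FMT-Con A 2 alone and 0.50 without those 3, and Lck -0.24 to 0.23, 0.38 and 0.41, and 0.018 without a count filter. Scaling to library totals moved the median of all genes to -0.19 in Con A against WT and 0.18 in FMT-Con A against Con A. Same-numbered libraries deviated together in 3 of 9 pairs (correlations -0.22 to 0.34), and the differently numbered Con A 3 and FMT-Con A 1 were at 0.36. With 3 libraries per group, such correlations cannot settle whether the numbers pair samples. With the replicate block the Cd3e call in FMT-Con A against Con A was lost (edgeR adjusted p = 0.0678), and the counts against WT stayed at 7 and 3 higher. Counts of 1 to 10 in WT limit what could be seen for Cd8b1, Cd3d, Cd5, Cd8a and Cd28.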
